A study of Arabidopsis thaliana with 30 samples.

Results

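The comparison described here set h2a.w-2 seedlings (W mock, 3 libraries) against Columbia wild type seedlings (Col mock, 3 libraries), both without a DNA-damaging agent, and so used 6 of the 30 RNA-sequencing libraries of the series. The libraries were chosen by their genotype and treatment labels and by no measured value. All plants were Arabidopsis thaliana of the Columbia background, grown for 7 days on plates with cycles of 16 h light and 8 h dark at 22 °C. The growth protocol describes seedlings and the tissue field says leaves. The labels do not say what the W allele does to its gene or genes, or how many seedlings went into a library. Nothing in them says that the 3 replicates were separate cultures. The p-values below therefore speak only of the spread among replicate libraries, which may be technical. That spread was pooled over the groups of all 30 libraries and is not that of the 6 libraries alone. Further comparisons share no library with this one. W MMS was set against Col MMS (both with the alkylating agent methyl methanesulfonate, MMS, at a dose and for a time not given in the labels) and h2a.x/w-2 mock (XW mock) against h2a.x-1 mock (X mock), while X MMS against X mock gave the response to the agent, with 3 libraries in each group.

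H2A.W is a plant variant of histone H2A with an extended carboxy-terminal tail that binds linker DNA, and in Arabidopsis it is deposited over constitutive heterochromatin around the centromeres, where transposons are kept silent. The genes HTA6, HTA7 and HTA12 encode it. The variant H2A.X, encoded by HTA3 and HTA5, is phosphorylated beside DNA breaks, and the series title names the N-terminal tails of both variants as binding partners of TONSOKU, a repair factor that recognises new chromatin behind the replication fork. The comparison asks which transcripts differ when the W mutation is present and no agent has been added.

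Levels are normalized counts (the reads of a gene scaled by the size factor of its library), and fold changes are log2 differences of (normalized count + 1) from limma with Benjamini-Hochberg adjustment over 20256 genes. The 6 libraries held between 15525950 and 25115027 reads in the listed genes, Col mock replicate 1 being the deepest and the next one holding 17074160. At an adjusted p under 0.05, 1226 genes (6.05% of those tested) were higher and 1435 (7.08%) lower in W mock than in Col mock. Of these, 200 were higher and 68 lower by at least 2-fold, and the median log2 fold change was 0.46 among genes called higher and -0.32 among genes called lower. Most differences were therefore small, and those of 2-fold or more were mostly rises. With log2(FPKM + 1) in place of normalized counts the split turned, to 1529 higher and 1141 lower. The number called higher was 778 without Col mock replicate 1, 801 without W mock replicate 1 and 815 without W mock replicate 3. Over all genes tested the median log2 fold change was 0.00. The gene lists named below were written with earlier results of these data known, and each is given by its counts and its median beside these values for all genes.

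None of the H2A.W transcripts was missing from W mock. HTA6 (AT5G59870, chromosome 5, 24115354 to 24116220) stood at 776, 839.8 and 779.8 in W mock against 1112, 1133 and 1186 in Col mock, so that the groups did not overlap (log2 fold change -0.52 with SE 0.08, adjusted p = 2.9e-05). HTA7 (AT5G27670, chromosome 5, 9792509 to 9793560) had 623, 642 and 635 in W mock against 784, 754 and 685 in Col mock, a difference that did not pass the test (log2 fold change -0.22 with SE 0.12, adjusted p = 0.25). That fall was called where the spread came from the 6 libraries alone (adjusted p = 0.034) and without XW mock replicate 1 (adjusted p = 0.0099), so the call depended on libraries outside the comparison. The third gene, HTA12 (AT5G02560, chromosome 5, 575225 to 577216), went up, with 193, 206 and 199 in W mock against 139, 128 and 163 in Col mock (log2 fold change 0.48 with SE 0.14, adjusted p = 0.024). The labels therefore could not be checked by the loss of a transcript. Reads over HTA12 are uncertain because 34.7% of its exon bases overlap the H2B gene AT5G02570. Its call was lost without W mock replicate 1, 2 or 3 or without Col mock replicate 1 or 2, where the adjusted p reached 0.12 at most. Both H2A.X genes were higher. HTA3 had 1171, 1221 and 1174 in W mock against 632, 594 and 556 in Col mock (log2 fold change 1.0 with SE 0.08, adjusted p = 3.9e-10). HTA5 had 1571, 1658 and 1548 in W mock against 1052, 1035 and 1033 in Col mock (log2 fold change 0.61 with SE 0.08, adjusted p = 4.6e-06). Of the exon bases of HTA3, 62.3% overlap other annotated genes, and the sources used here do not say whether reads were counted by strand.

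Most core histone genes were higher in W mock. Each nucleosome holds a pair of H2A-H2B dimers and an H3-H4 tetramer, and the replicative histone genes are mostly transcribed in S phase, when new DNA is packaged. All 9 H2B genes were higher in W mock (median log2 fold change 0.80). No W mock library overlapped a Col mock library for any of them, as for 1175 of all 1226 genes called higher. The summed level of the 9 H2B genes was 13750, 13906 and 13779 normalized counts in W mock against 8792, 8544 and 7858 in Col mock. The largest rise was that of AT3G53650 (chromosome 3, 19889297 to 19890251), with 576, 553 and 563 in W mock against 65.9, 53.9 and 55.1 in Col mock (log2 fold change 3.26 with SE 0.15, adjusted p = 1.3e-14). AT2G37470, another H2B gene, had 754, 878 and 792 in W mock against 298, 304 and 267 in Col mock (log2 fold change 1.47 with SE 0.10, adjusted p = 1.3e-11). The abundant H2B gene HTB4 moved less, with 3779, 3820.5 and 3714 in W mock against 2713, 2672 and 2481 in Col mock (log2 fold change 0.53 with SE 0.07, adjusted p = 2.3e-06). AT5G02570 (log2 fold change 2.53 with SE 0.42, adjusted p = 1.1e-04) lies wholly over exons of HTA12, so its reads cannot be assigned with certainty. Per gene length, AT3G53650 supplied 4.69% ± 0.129 of the summed H2B FPKM in W mock and 0.821% ± 0.0713 in Col mock (SD, n = 3 each). A further gene annotated only as a histone superfamily protein, AT3G09480, was noticed after its values were seen and had 141, 137 and 108 in W mock against 24.2, 35.6 and 32.8 in Col mock (log2 fold change 2.03 with SE 0.20, adjusted p = 2.6e-08).

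The median log2 fold change was 0.81 for the H2A.X genes and 0.80 for the H2B genes, and lower for the other classes of core histone. Of the 38 core histone genes tested, 23 were higher and 2 lower (median log2 fold change 0.47), against 6.05% and 7.08% of all genes. Among replicative H2A genes HTA2 (log2 fold change 1.03 with SE 0.07, adjusted p = 5.0e-11), HTA13 (log2 fold change 0.90 with SE 0.08, adjusted p = 5.2e-09) and HTA1 (log2 fold change 0.45 with SE 0.07, adjusted p = 2.7e-05) rose, while HTA10, the fourth, had 1768, 1698 and 1523 in W mock against 1594, 1554 and 1405 in Col mock and was not called. Of the genes for H3.1, the form of H3 built in during replication, 3 of 5 rose, led by AT5G10400 with 1055, 1099 and 1027 in W mock against 636, 647 and 612 in Col mock (log2 fold change 0.75 with SE 0.09, adjusted p = 2.1e-06). AT3G27360 was called higher only in alternatives, among them DESeq2 (adjusted p = 0.040), edgeR and TMM (0.030) and limma on FPKM (0.017). AT5G10390 was called higher by limma only with the 6 libraries alone (0.044). Of 8 H4 genes 3 rose, HIS4 (log2 fold change 0.50 with SE 0.13, adjusted p = 0.0098), AT5G59690 (log2 fold change 0.45 with SE 0.08, adjusted p = 2.2e-04) and AT1G07820 (log2 fold change 0.30 with SE 0.07, adjusted p = 0.0027), and the other 5 lay between 0.26 and 0.53 without passing the test. With the 6 libraries alone, limma called AT3G45930 (adjusted p = 0.0047), AT3G46320 (0.0050), AT3G53730 (0.0091) and AT5G59970 (0.016) higher. Without XW mock replicate 1 it called AT1G07660 (0.043), AT3G45930 (0.014), AT3G46320 (0.014) and AT3G53730 (0.0011) higher. Of the 4 genes for H3.3, the form placed outside replication, and for the centromeric H3, only AT5G10980 was called (log2 fold change 0.25 with SE 0.05, adjusted p = 4.1e-04). H2A.Z, the variant found around transcription start sites, was mixed. HTA8 was higher (log2 fold change 0.40 with SE 0.14, adjusted p = 0.049) and HTA9 lower (log2 fold change -0.24 with SE 0.08, adjusted p = 0.041). Each of these calls was lost in 5 of the 6 fits without 1 library, all but that without W mock replicate 2, with adjusted p up to 0.16. In FPKM, which is per gene length, H2A.W genes held 7.70% ± 0.243 of all H2A transcript in W mock and 12.2% ± 0.432 in Col mock (SD, n = 3 each). The summed level of the H2A.W genes themselves was 29.2 ± 1.02 FPKM in W mock and 35.6 ± 0.113 in Col mock, a smaller relative fall than that of the share. H2A.X genes held 27.5% ± 0.487 in W mock and 22.7% ± 0.535 in Col mock, and the summed H2A level was 379 ± 17.7 FPKM in W mock and 292 ± 10.6 in Col mock. The 10 histone chaperone genes tested, which carry histones to DNA, held no call in either direction (limma, adjusted p under 0.05). Of these, NRP2 was called higher by limma with the 6 libraries alone (adjusted p = 0.042) and without XW mock replicate 1 (0.045). Of the 3 genes for linker histone H1, which binds the DNA between nucleosomes, AT1G06760 was higher (log2 fold change 0.26 with SE 0.06, adjusted p = 0.0018) and HIS1-3, a drought-inducible form, lower (log2 fold change -0.47 with SE 0.15, adjusted p = 0.032). The groups overlapped for HIS1-3, and its call was lost without W mock replicate 1 or 3 or Col mock replicate 1 (adjusted p up to 0.22). Of the exon bases of AT1G06760, 41.9% overlap another annotated gene.

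**Figure D1:**
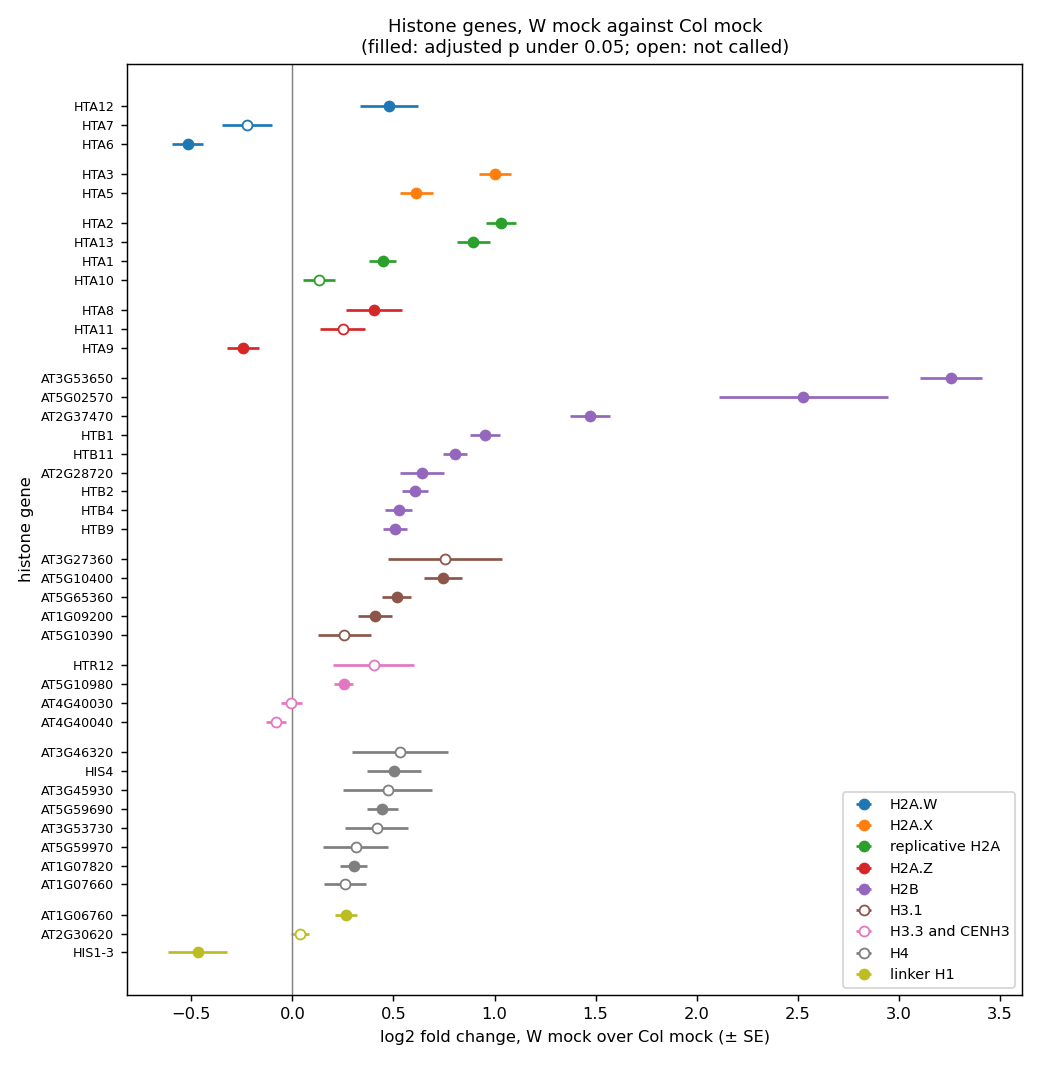
Log2 fold change (x axis, ± SE) of each tested histone gene (y axis) in W mock over Col mock, coloured by class, filled where called and open where not. All 9 H2B genes lie to the right of 0, between 0.51 and 3.26, and HTA6 lies at -0.52.

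Sequence upstream of these genes was read from the TAIR10.1 genome (RefSeq) as the 250 bases before each annotated start. The letters AACGG, the core of sites bound by MYB3R factors in cell-cycle genes, stood on either strand in 6 of 9 H2B promoters (66.7%), in 21 of 38 core histone promoters (55.3%) and in 4442 of 20403 promoters of all genes (21.8%). The histone octamer CGCGGATC, a known element of plant histone promoters that was searched after the data were seen, stood in 9 of 38 core histone promoters (23.7%) and in 30 of 20403 (0.147%), but in none of the 9 H2B promoters. The promoters of the H2B gene with the largest rise, of the next H2B gene free of overlap, and of the H3.1 and H2A genes that rose most among those with the octamer are shown 5′ to 3′ on the gene's strand, with AACGG (or its complement) in capitals in the first pair and the octamer (or its complement) in capitals in the second.
AT3G53650 (H2B, chr3:19889047-19889296, plus strand): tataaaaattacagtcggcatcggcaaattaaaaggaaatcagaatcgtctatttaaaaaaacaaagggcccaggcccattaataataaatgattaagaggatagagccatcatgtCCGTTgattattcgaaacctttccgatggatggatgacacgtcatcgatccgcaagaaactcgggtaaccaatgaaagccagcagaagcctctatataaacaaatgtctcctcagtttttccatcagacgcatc
AT2G37470 (H2B, chr2:15736477-15736726, plus strand): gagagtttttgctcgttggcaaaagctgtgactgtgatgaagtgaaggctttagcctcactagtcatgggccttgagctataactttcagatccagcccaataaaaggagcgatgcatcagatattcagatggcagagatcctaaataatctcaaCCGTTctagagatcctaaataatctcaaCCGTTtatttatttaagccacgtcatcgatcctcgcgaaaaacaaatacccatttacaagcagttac
AT5G10400 (H3.1, chr5:3270958-3271207, minus strand): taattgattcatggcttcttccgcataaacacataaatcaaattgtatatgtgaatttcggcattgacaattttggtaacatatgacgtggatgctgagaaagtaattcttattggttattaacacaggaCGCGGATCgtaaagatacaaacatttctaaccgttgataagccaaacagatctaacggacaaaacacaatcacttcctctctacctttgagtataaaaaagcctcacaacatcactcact
HTA13 (H2A, chr3:7229140-7229389, plus strand): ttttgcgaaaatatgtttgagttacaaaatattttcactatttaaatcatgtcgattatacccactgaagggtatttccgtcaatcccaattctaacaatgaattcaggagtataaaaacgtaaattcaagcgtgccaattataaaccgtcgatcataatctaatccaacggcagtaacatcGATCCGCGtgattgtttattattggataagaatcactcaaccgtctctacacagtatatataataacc
A match says only that the letters are present. Of all genes called higher, 25.9% held AACGG and 0.897% the octamer, and of those called lower 22.4% and 0.139%.

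FLC and its relatives were lower in W mock. FLC is a MADS-box repressor of flowering whose locus is a classic case of silencing by chromatin, and FLM and MAF2 to MAF5 are its clade. FLC (AT5G10140, chromosome 5, 3173382 to 3179448) had 25.4, 38 and 23.5 in W mock against 157, 146 and 159 in Col mock, without overlap (log2 fold change -2.4 with SE 0.25, adjusted p = 6.4e-08). MAF4 had 36, 59.7 and 43.5 in W mock against 86.4, 84.2 and 90.3 in Col mock (log2 fold change -0.92 with SE 0.16, adjusted p = 1.9e-04), and FLM had 480.1, 467 and 452 in W mock against 602, 604 and 572 in Col mock (log2 fold change -0.35 with SE 0.07, adjusted p = 0.0015). All 6 genes of the clade were called lower, with a median log2 fold change of -0.49. The calls of MAF2 (-0.20), MAF3 (-0.29) and MAF5 (-0.63) were each lost in 4 of the 6 fits without 1 library, with adjusted p up to 0.31. This was so for MAF2 without W mock replicate 1 or 3 or Col mock replicate 2 or 3, for MAF3 without replicate 1 or 2 of either group, and for MAF5 without W mock replicate 1 or 2 or Col mock replicate 1 or 3. DESeq2 called 3 of the 6. Of the exon bases of FLC, 68.1% overlap another annotated transcript. Of 12 flowering regulators, SOC1, a floral activator that FLC represses, was higher with 396, 397 and 415 in W mock against 308, 289 and 273 in Col mock (log2 fold change 0.47 with SE 0.11, adjusted p = 0.0039). SVP, a partner of FLC, was higher as well (log2 fold change 0.35 with SE 0.07, adjusted p = 6.2e-04). FLP1, annotated as a flowering-promoting factor-like protein, had 24.4, 18.4 and 14.1 in W mock against 127, 73.4 and 62.1 in Col mock (log2 fold change -2.11 with SE 0.36, adjusted p = 1.5e-04).

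Of the 5 silencing reporters on the list only 2 were measured, and both were strongly higher. QQS, an orphan gene of starch metabolism whose expression depends on DNA methylation of repeats near its start (AT3G30720, chromosome 3, 12349047 to 12349933), had 98.6, 82.5 and 87 in W mock against 16.1, 9.71 and 5.86 in Col mock (log2 fold change 3.06 with SE 0.30, adjusted p = 2.1e-08). AT3G01345, annotated as an uncharacterized protein (chromosome 3, 129138 to 130749), had 118, 165 and 112 in W mock against 12.5, 4.32 and 12.9 in Col mock (log2 fold change 3.71 with SE 0.58, adjusted p = 4.4e-05). For both, every W mock library lay above every Col mock library, as for 1175 of all 1226 genes called higher. The tables hold no transposable element genes, so the elements that H2A.W covers were not analysed here. Among 21 tested genes whose annotation carries transposon terms, such as domesticated transposases, none was higher and 1 was lower (limma, adjusted p under 0.05).

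Of 5 genes that remove or guard against DNA methylation, 2 were lower and none higher. ROS1, a glycosylase that excises 5-methylcytosine, had 445, 314 and 379.9 in W mock against 568, 621 and 629.6 in Col mock (log2 fold change -0.69 with SE 0.12, adjusted p = 3.1e-04). IBM1, a histone demethylase that keeps the silencing mark H3K9 methylation off gene bodies, had 481, 387 and 439 in W mock against 597, 580.5 and 559 in Col mock (log2 fold change -0.41 with SE 0.09, adjusted p = 0.0031). In neither gene did the groups overlap, as was so for most genes called. The 3 other DNA glycosylase genes tested were not called. Of 16 genes that maintain heterochromatin, 5 were higher and none lower (median log2 fold change 0.19). They were VIM1, which brings the maintenance methyltransferase to hemimethylated DNA (log2 fold change 0.42 with SE 0.09, adjusted p = 0.0014), and DDM1, a remodeller needed for silencing (log2 fold change 0.43 with SE 0.12, adjusted p = 0.014). The others were the CG methyltransferase gene MET1 (log2 fold change 0.24 with SE 0.07, adjusted p = 0.03), HDA6 (0.22) and MORC6 (0.25). VIM1 alone kept its call in all 6 fits that left out 1 library. Without W mock replicate 1 or without Col mock replicate 3 the count was 1, without W mock replicate 3 or Col mock replicate 2 it was 2, and without Col mock replicate 1 it was 3, with adjusted p up to 0.17 for the genes lost. Of 6 genes of RNA-directed DNA methylation DCL3 was lower (log2 fold change -0.34 with SE 0.11, adjusted p = 0.033), a call lost without any of 5 libraries (all but W mock replicate 1, adjusted p up to 0.15).

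Genes of the DNA damage response were higher although no agent had been added. In plants, broken or stalled DNA activates the kinases ATM and ATR, which phosphorylate the transcription factor SOG1. SOG1 in turn induces repair genes, the SIAMESE-related inhibitors of cyclin-dependent kinases (SMR) and the factor NAC044, which holds back G2/M genes. Of 31 genes of this response 16 were higher and none lower (median log2 fold change 0.35), against 6.05% higher of all genes. NAC044 (AT3G01600, chromosome 3, 229075 to 231517) had 62.5, 40.1 and 67 in W mock against 19, 9.71 and 10.6 in Col mock (log2 fold change 2.05 with SE 0.22, adjusted p = 9.2e-08). NAC103, another SOG1 target of the same family, had 53, 39.1 and 55.3 in W mock against 19, 14 and 4.69 in Col mock (log2 fold change 2.05 with SE 0.30, adjusted p = 1.8e-05). SMR4, a kinase inhibitor, had 14.8, 18.4 and 11.8 in W mock against 3.66, 4.32 and 2.34 in Col mock (log2 fold change 1.86 with SE 0.30, adjusted p = 8.1e-05). The lowest W mock library stood above the highest Col mock library for all 3 genes, as for 1175 of all 1226 genes called higher. SMR5 (log2 fold change 1.24 with SE 0.34, adjusted p = 0.014) and SMR7 (log2 fold change 1.19 with SE 0.30, adjusted p = 0.0086) rose too. SMR7 was not called without W mock replicate 2 or Col mock replicate 3 (adjusted p up to 0.076), nor with FPKM (0.12) or the 6 libraries alone (0.056), and SMR5 not without Col mock replicate 2 (0.097), and SMR5 lies wholly over exons of another annotated gene. All these levels are low, so the fold changes on the log2(count + 1) scale understate the ratio.

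Among 15 genes of the response to double-strand breaks 8 were higher. GMI1, which carries an SMC hinge domain and is strongly induced by breaks, had 344, 315 and 395 in W mock against 153, 167 and 166 in Col mock (log2 fold change 1.11 with SE 0.11, adjusted p = 1.8e-08). BRCA1, a ubiquitin ligase of recombination, had 231, 208 and 231 in W mock against 159.7, 159.7 and 151 in Col mock (log2 fold change 0.51 with SE 0.12, adjusted p = 0.0046). XRI1, induced by X-rays and needed for meiosis, had 244, 268 and 262 in W mock against 177, 187 and 137 in Col mock (log2 fold change 0.64 with SE 0.10, adjusted p = 4.8e-05). These 3 genes and RPA1E, a subunit of the single-strand binding protein RPA (log2 fold change 0.61 with SE 0.15, adjusted p = 0.0054), kept their calls without any 1 of the 6 libraries. PARP2 (log2 fold change 0.46 with SE 0.12, adjusted p = 0.0084), COM1 (log2 fold change 0.65 with SE 0.21, adjusted p = 0.04), SYN2 (log2 fold change 0.41 with SE 0.13, adjusted p = 0.036) and AGO2 (log2 fold change 0.27 with SE 0.08, adjusted p = 0.018) lost theirs in some of these fits, with adjusted p up to 0.17, and the count was 4 without W mock replicate 1 and 5 without Col mock replicate 3. Of the checkpoint genes RAD17, which loads the 9-1-1 clamp, rose (log2 fold change 0.88 with SE 0.11, adjusted p = 9.2e-07), and ATM, ATR, SOG1 and the other 2 tested did not pass, although ATM was called with edgeR and TMM (adjusted p = 0.047), with the 6 libraries alone (0.018) and without XW mock replicate 1 (0.030). Both TSO2 and RNR1, the small and large subunit of ribonucleotide reductase, which makes deoxynucleotides, were higher. TSO2 had 1986, 1921 and 2017 in W mock against 1535, 1398 and 1351 in Col mock (log2 fold change 0.47 with SE 0.07, adjusted p = 1.6e-05). RNR1 had 2070.0, 1759 and 2076 in W mock against 1615, 1518 and 1543 in Col mock (log2 fold change 0.33 with SE 0.06, adjusted p = 5.3e-04).

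SOG1 binds a palindrome of CTT and AAG with 7 bases between them. These letters, searched on either strand, stood in 9 of 31 promoters of the damage response list (29.0%) and in 1830 of 20403 promoters of all genes (8.97%), and 115 of the 1226 genes called higher in W mock (9.38%) held them. The promoters of the 3 inhibitor and NAC genes that rose and hold 1 copy are shown 5′ to 3′ on the gene's strand, with the palindrome in capitals.
NAC044 (chr3:228825-229074, plus strand): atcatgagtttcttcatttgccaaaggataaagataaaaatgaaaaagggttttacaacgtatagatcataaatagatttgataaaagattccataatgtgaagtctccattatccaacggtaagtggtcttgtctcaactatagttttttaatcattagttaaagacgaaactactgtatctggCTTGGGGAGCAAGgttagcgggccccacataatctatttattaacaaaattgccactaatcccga
SMR4 (chr5:442188-442437, minus strand): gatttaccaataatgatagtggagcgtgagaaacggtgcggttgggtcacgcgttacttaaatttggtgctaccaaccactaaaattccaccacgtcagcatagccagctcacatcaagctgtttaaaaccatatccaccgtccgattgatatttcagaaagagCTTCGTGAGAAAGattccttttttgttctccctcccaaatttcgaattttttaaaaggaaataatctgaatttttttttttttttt
SMR7 (chr3:10231568-10231817, minus strand): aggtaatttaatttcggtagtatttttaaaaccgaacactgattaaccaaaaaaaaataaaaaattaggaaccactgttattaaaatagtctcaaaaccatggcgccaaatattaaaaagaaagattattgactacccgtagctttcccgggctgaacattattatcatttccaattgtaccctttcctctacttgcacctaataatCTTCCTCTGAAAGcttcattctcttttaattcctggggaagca
The palindrome ends between 31 and 74 bases before the annotated start in these 3 promoters.

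Genes of mitosis were modestly higher. Of 25 G2/M genes, which include the B-type cyclins and their kinases, 11 were higher and none lower (median log2 fold change 0.37). CYCB2-2, a mitotic cyclin, had 126, 135 and 125 in W mock against 90.09, 78.8 and 76.2 in Col mock (log2 fold change 0.65 with SE 0.14, adjusted p = 0.0023) and kept its call without any 1 library. CDKB2-1, a plant mitotic kinase, had 423, 375 and 409 in W mock against 324, 318 and 293 in Col mock (log2 fold change 0.37 with SE 0.09, adjusted p = 0.0088). CYCB1-1, a cyclin that is also induced by DNA damage, had 137, 123 and 159 in W mock against 105, 101 and 86.8 in Col mock (log2 fold change 0.51 with SE 0.13, adjusted p = 0.0086). The kinesin gene HIK (log2 fold change 0.51 with SE 0.13, adjusted p = 0.0098) and the receptor-like kinase gene IMK2 (log2 fold change 0.56 with SE 0.14, adjusted p = 0.0085) were the other leading genes. W mock replicate 1 was the highest W mock library for 9 of the 11 genes, and the summed level of the list was 7340, 5688 and 6418 normalized counts in W mock against 5084, 5022 and 4883 in Col mock. The count of 11 fell to 3 without W mock replicate 1, 4 without Col mock replicate 3, 5 without Col mock replicate 2, 6 without W mock replicate 3 and 7 without Col mock replicate 1. Of 18 genes of replication licensing and the fork, 4 were higher: CDC45 of the replicative helicase (log2 fold change 0.63 with SE 0.14, adjusted p = 0.0019) and MCM5 (log2 fold change 0.34 with SE 0.07, adjusted p = 0.0023) in every fit, and PCNA1 (log2 fold change 0.39 with SE 0.12, adjusted p = 0.032) and E2FA (log2 fold change 0.31 with SE 0.10, adjusted p = 0.034) in some. PCNA1 lost its call without W mock replicate 1 or 3 or any 1 of the Col mock replicates, and E2FA without W mock replicate 1 or 3 or Col mock replicate 2 or 3 (adjusted p up to 0.16). The letters TTTCCCGC, a site of E2F factors of S phase, stood in 5 of 18 promoters of that list (27.8%), in 0.627% of all promoters and in none of the 38 core histone promoters.

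Most genes on the lists of fast responses to touch, wounding and cold were higher in W mock. Of 11 touch-type ERF and CBF factors 7 were higher (median log2 fold change 1.48), and of 17 other touch and wound genes 14 were (median 1.06), none being lower. ORA47, an AP2-type activator of jasmonate synthesis, had 85.9, 128 and 114 in W mock against 6.59, 7.55 and 16.4 in Col mock (log2 fold change 3.39 with SE 0.34, adjusted p = 4.4e-08). ERF104, an ethylene-response factor, had 984, 1458 and 1396 in W mock against 190.4, 243 and 247 in Col mock (log2 fold change 2.48 with SE 0.16, adjusted p = 1.3e-11). ZAT10, a zinc-finger repressor of stress responses, had 699.5, 1261 and 1067 in W mock against 127, 141 and 123 in Col mock (log2 fold change 2.9 with SE 0.19, adjusted p = 1.3e-11). For all 21 genes called, the groups did not overlap, as for 1175 of all 1226 genes called higher. ERF105 had 271, 391 and 381 in W mock against 27.8, 15.1 and 24.6 in Col mock (log2 fold change 3.91 with SE 0.22, adjusted p = 5.7e-13), but lies wholly over exons of AT5G51180. The zinc-finger gene SZF1 (log2 fold change 1.85 with SE 0.13, adjusted p = 6.4e-11), the kinase gene MKK9 (log2 fold change 1.59 with SE 0.12, adjusted p = 1.2e-10), CZF1 (log2 fold change 1.06 with SE 0.10, adjusted p = 1.9e-08) and the calmodulin-like gene TCH2 (log2 fold change 0.98 with SE 0.10, adjusted p = 8.7e-08) rose too. W mock replicate 1 was the lowest W mock library for 20 of the 21 genes, and the summed level of the 28 genes was 10420, 15542 and 14843 normalized counts in W mock against 4923, 5123 and 4993 in Col mock. How long the seedlings were handled is not stated, and its part in these differences was not tested. Of 10 JAZ genes, which repress the jasmonate response, JAZ7 and JAZ9 were higher (1.07 and 0.33), each losing the call in 4 or more of the 6 fits without 1 library, JAZ7 without replicates 1 and 3 of either group and JAZ9 without any (adjusted p up to 0.26). JAZ7 was not called with edgeR and TMM (0.089) or with FPKM (0.25) either.

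**Figure D2:**
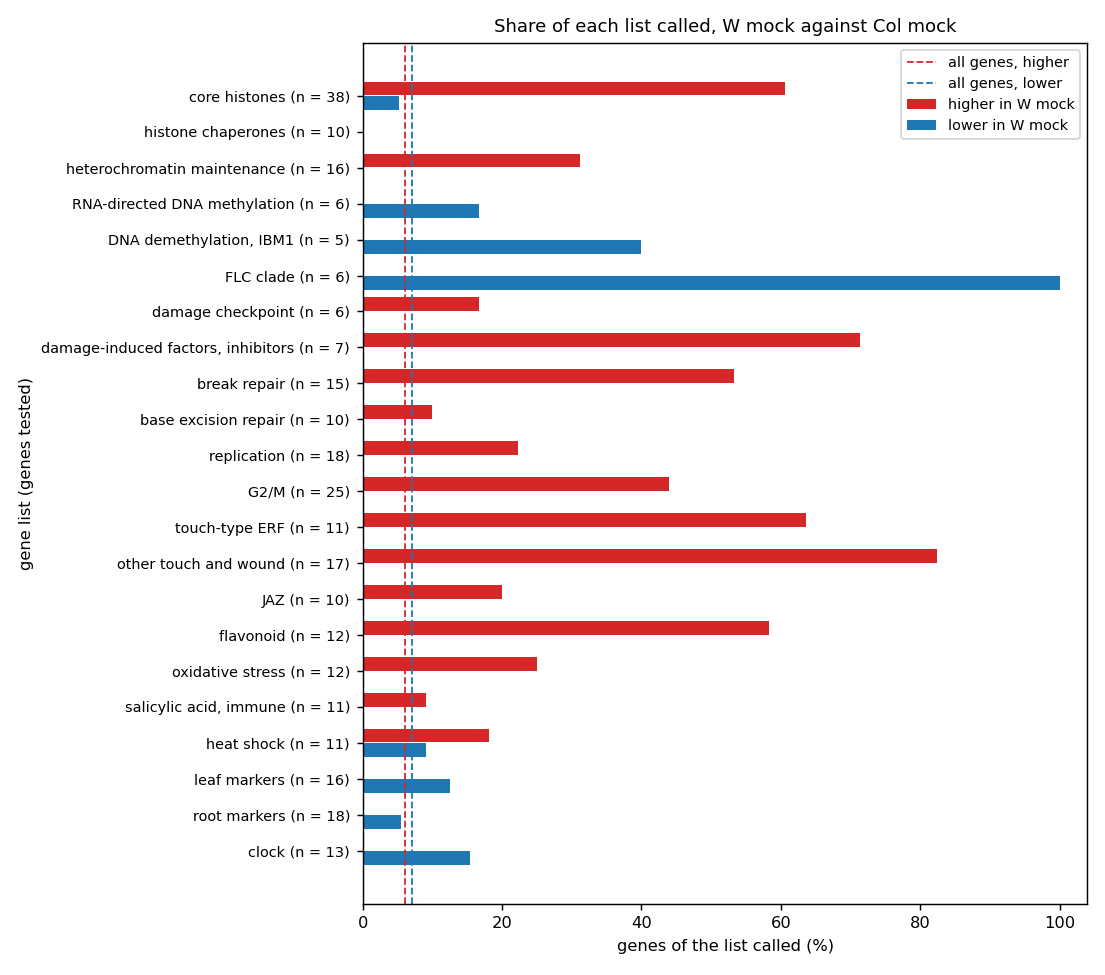
Share of the genes of each list (y axis, with the number tested) called higher (red bars) and lower (blue bars) in W mock, in percent (x axis). Dashed lines mark the shares of all genes, 6.05% higher and 7.08% lower. All 6 FLC clade genes are called lower, and 23 of 38 core histone genes are called higher.

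Other lists held calls in part of their genes, to be read beside 6.05% higher and 7.08% lower of all genes. The salicylic acid, heat shock, clock and shoot meristem lists are short and held few calls. Whether these lists exceed the shares of all genes was not tested, so their calls are given as single genes. Of 12 genes of flavonoid and anthocyanin synthesis 7 were higher, FLS1, a flavonol synthase, with 2644, 1806 and 1985 in W mock against 1085, 1303 and 1470.2 in Col mock (log2 fold change 0.73 with SE 0.15, adjusted p = 0.0014), and TT19, a transferase that carries anthocyanin to the vacuole, with 89, 62.9 and 52.9 in W mock against 22, 31.3 and 35.2 in Col mock (log2 fold change 1.18 with SE 0.30, adjusted p = 0.0085). The early enzymes TT5 (log2 fold change 0.51 with SE 0.12, adjusted p = 0.0049), F3H (log2 fold change 0.55 with SE 0.15, adjusted p = 0.014) and TT4 (log2 fold change 0.44 with SE 0.12, adjusted p = 0.017) rose too, with 93.8% of the exon bases of F3H over another gene. W mock replicate 1 was the highest library for all 7, and 1 was called without it and 2 without Col mock replicate 1. WRKY70, a factor of salicylic acid defence, had 119.8, 126 and 171 in W mock against 40.3, 53.9 and 49.2 in Col mock (log2 fold change 1.51 with SE 0.16, adjusted p = 8.8e-08), the 1 call among 11 genes of that list. Of 12 genes of oxidative and xenobiotic stress 3 were higher and none lower, led by AT2G21640, a mitochondrial stress marker (log2 fold change 0.92 with SE 0.23, adjusted p = 0.0084). That call was lost without W mock replicate 3 or Col mock replicate 2 (adjusted p up to 0.072), with edgeR and TMM (0.13) and with FPKM (0.13). Of 11 heat shock and protein folding genes 2 were higher and 1 lower (median log2 fold change 0.28). BIP3, a chaperone of the endoplasmic reticulum, had 18, 11.9 and 11.8 in W mock against 8.06, 1.08 and 7.03 in Col mock (log2 fold change 1.46 with SE 0.37, adjusted p = 0.0086). ROF2, a heat-induced peptidyl-prolyl isomerase, was higher (log2 fold change 0.59 with SE 0.19, adjusted p = 0.033) and the heat shock factor gene HSFA7A lower (log2 fold change -0.50 with SE 0.10, adjusted p = 5.2e-04). BIP3 was not called without W mock replicate 1 or Col mock replicate 2 (adjusted p up to 0.12), and ROF2 was called in only 1 of the 6 fits without 1 library, that without W mock replicate 2. BIP3 was also not called with edgeR and TMM (0.15), with FPKM (0.25) or with the 6 libraries alone (0.087). ROF2 was not called with DESeq2 (0.074), with edgeR and TMM (0.10) or with FPKM (0.064). Of 13 clock genes ELF3 (log2 fold change -0.22 with SE 0.05, adjusted p = 0.0031) and BOA (log2 fold change -0.69 with SE 0.11, adjusted p = 6.5e-05), both of the evening, were lower. Of 7 shoot meristem genes CLV1, the receptor that limits stem cells, was lower, with 1181, 996 and 1099 in W mock against 1379.9, 1452 and 1360.0 in Col mock (log2 fold change -0.36 with SE 0.07, adjusted p = 0.0011).

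Markers of organs bear on what the seedlings held. Of 16 leaf photosynthesis markers 2 were lower and none higher, and their summed level ran between 1039860 and 1126170 normalized counts in W mock and between 1139160 and 1164470 in Col mock, with no overlap. The 18 root markers summed to between 76190 and 91740 in W mock and between 74657 and 88502 in Col mock, which overlap, and PHO1, a phosphate exporter of the root, was the 1 called (log2 fold change -0.42 with SE 0.10, adjusted p = 0.0035). FRO2 and IRT1, the reductase and the transporter of iron uptake, had higher means in W mock and did not pass the test. FRO2 had 182, 323 and 313 in W mock against 117, 96 and 80.9 in Col mock (log2 fold change 1.44 with SE 0.50, adjusted p = 0.054), and IRT1 had 326, 698 and 605 in W mock against 283, 189.9 and 188 in Col mock (log2 fold change 1.25 with SE 0.59, adjusted p = 0.17), without overlap of the groups for either gene. Both were called with edgeR and TMM (adjusted p = 0.0010 for FRO2 and 0.0078 for IRT1), with FPKM (2.3e-04 and 0.020), with the 6 libraries alone (8.6e-04 and 0.0049) and with the 15 mock libraries (0.0031 and 0.018), and FRO2 also with DESeq2 (0.0096) and with a pseudocount of 5 (0.0080). The 3 seed genes in the tables summed to between 213 and 654 in W mock and between 143 and 215 in Col mock, and none was called. The leaf calls, RBCS2B (-0.26) and LHCB1.3 (-0.27), were lost without any 1 of the 6 libraries (adjusted p between 0.051 and 0.15). The lowest leaf marker averaged 17346 normalized counts in W mock and 17999 in Col mock, and the lowest root marker 34.3 in W mock and 27.1 in Col mock, so transcripts of both organs were present. In bulk RNA, fewer cells of a type and less RNA per cell cannot be told apart, and the part of organ share in the results above was not tested.

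Of the 12 largest rises, 3 are described above as histone or silencing genes (AT3G53650, QQS and AT3G01345) and 3 as touch factors (ERF105, ORA47 and ZAT10). AT5G45630, annotated as a senescence regulator of unknown function, had 21.2, 61.8 and 48.2 in W mock against 1.46, 1.08 and 3.52 in Col mock (log2 fold change 3.84 with SE 0.45, adjusted p = 6.5e-07). CAF1a, a deadenylase that shortens mRNA tails, had 302, 474 and 499 in W mock against 76.2, 66.9 and 52.8 in Col mock (log2 fold change 2.67 with SE 0.15, adjusted p = 2.3e-13). DIC2, a dicarboxylate carrier of mitochondria, had 339, 635 and 582 in W mock against 77.6, 76.6 and 83.2 in Col mock (log2 fold change 2.65 with SE 0.20, adjusted p = 9.4e-11). These 3 genes had their lowest W mock value in replicate 1, as the touch factors did. AT5G35660, of a glycine-rich protein family, had 248, 255 and 313 in W mock against 44.7, 28.1 and 44.6 in Col mock (log2 fold change 2.79 with SE 0.34, adjusted p = 1.1e-06). AT1G64795, annotated as an uncharacterized protein, had 238, 276 and 281 in W mock against 22, 47.5 and 48.1 in Col mock (log2 fold change 2.81 with SE 0.35, adjusted p = 1.3e-06), with 70.6% of its exon bases over AT1G64790. AT1G53880, annotated as a subunit of translation factor eIF-2B, had 56.2, 7.60 and 75.3 in W mock against 3.66, 2.16 and 1.17 in Col mock (log2 fold change 3.4 with SE 0.95, adjusted p = 0.016), which rests on W mock replicates 1 and 3, and it was not called without W mock replicate 1, W mock replicate 3 or Col mock replicate 3 (adjusted p up to 0.095).

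The 12 largest falls were led by AT5G56370, annotated with F-box and FBD domains, which had 4.24, 7.60 and 5.88 in W mock against 80.6, 52.9 and 73.9 in Col mock (log2 fold change -3.35 with SE 0.23, adjusted p = 1.3e-11). No other gene of the rule fell as far, and FLC and FLP1 came next. AT5G24240, annotated as a phosphatidylinositol 4-kinase gamma-like protein, had 19.1, 19.5 and 43.5 in W mock against 79.8, 114 and 125 in Col mock (log2 fold change -2.0 with SE 0.28, adjusted p = 1.0e-05). AT5G02760, a protein phosphatase of family 2C, had 158, 128 and 133 in W mock against 610.1, 487 and 280.2 in Col mock (log2 fold change -1.64 with SE 0.27, adjusted p = 9.0e-05). PGAZAT, a polygalacturonase that loosens cell walls, had 51.9, 44.5 and 37.6 in W mock against 124, 149.97 and 116 in Col mock (log2 fold change -1.52 with SE 0.35, adjusted p = 0.0041). ASN1, an asparagine synthetase induced in the dark, had 288, 544 and 619.8 in W mock against 1267, 1239.7 and 1138 in Col mock (log2 fold change -1.4 with SE 0.22, adjusted p = 7.2e-05), and DIN2, a dark-inducible glycosyl hydrolase, had 169, 239 and 194 in W mock against 702, 516 and 457 in Col mock (log2 fold change -1.46 with SE 0.24, adjusted p = 8.1e-05). The groups did not overlap in any of these, which the rule for naming them required. The remaining falls were AT1G64360 (-1.58), the non-coding AT2G06002 (-1.5), AT3G01175 (-1.39) and AT1G19540 (-1.36) on the log2 scale.

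Some of the genes called were called again in comparisons of other libraries and others were not. These comparisons came from 1 fit and share its estimate of the spread of each gene, so the calls are not fully independent. In W MMS against Col MMS, where 1569 genes (7.75%) were higher and 796 (3.93%) lower, 360 of the 1226 genes higher in W mock (29.4%) were higher again and 26 lower, which is 22.9% of the genes higher under MMS. Of the 1435 genes lower in W mock, 180 (12.5%) were lower again, 22.6% of the genes lower under MMS, and 63 were higher. With only the 6 MMS libraries in the fit, 365 genes and not 796 were lower. In XW mock against X mock, with 1494 genes (7.38%) higher and 1402 (6.92%) lower, 361 of the 1226 (29.4%) were higher and 86 lower, and 210 of the 1435 (14.6%) were lower and 103 higher. These were 24.2% of the genes higher and 14.98% of those lower in that comparison, in which 716 genes were lower without XW mock replicate 1. That comparison does not differ by W alone, since HTA5, an H2A.X gene, averaged 916 ± 37.2 in XW mock and 191 ± 19 in X mock (SD, n = 3 each).

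The lists differed in how far they were repeated. All 23 core histone genes called higher in W mock were called higher in W MMS as well, and 19 of them in XW mock over X mock. The 19 include 1 H2A.X gene, HTA5, whose difference between XW mock and X mock is the one given above. Of the 21 touch and wound genes 8 were called higher under MMS and 20 in XW mock over X mock, and of the 16 damage response genes 5 were under MMS and 13 in XW mock over X mock. The 11 G2/M genes went the other way, with 10 called higher under MMS and 1 in XW mock over X mock. None of the 7 flavonoid genes or the 4 replication genes was called higher again in either comparison (limma, adjusted p under 0.05). Of the 6 FLC clade genes 3 were called lower under MMS and 4 in XW mock over X mock. The shares of all genes called in these comparisons are those given above.

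The H2B, silencing and FLC differences were among those repeated. In W MMS over Col MMS the log2 fold change was 2.97 for AT3G53650, 3.35 for QQS, 3.56 for AT3G01345 and -2.61 for FLC, and in XW mock over X mock it was 3.07 for AT3G53650, 2.76 for QQS, 3.42 for AT3G01345 and -1.65 for FLC. All 9 H2B genes were called higher in both, with medians of 0.83 and 1.1. AT3G53650 averaged 237 ± 39.4 in W MMS and 29.5 ± 6.74 in Col MMS, and 1245 ± 209 in XW mock and 147 ± 22.9 in X mock (normalized counts, SD, n = 3 each). AT3G01345 averaged 164 ± 44.3 in XW mock and 27.2 ± 36.5 in X mock, the wide spread in X mock coming from 1 library that stood high. The fall of HTA6 was repeated in XW mock over X mock (-0.39) and not under MMS (-0.02), and the difference between MMS and mock was itself called (log2 difference 0.49 with SE 0.11, adjusted p = 0.0054).

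**Figure D3:**
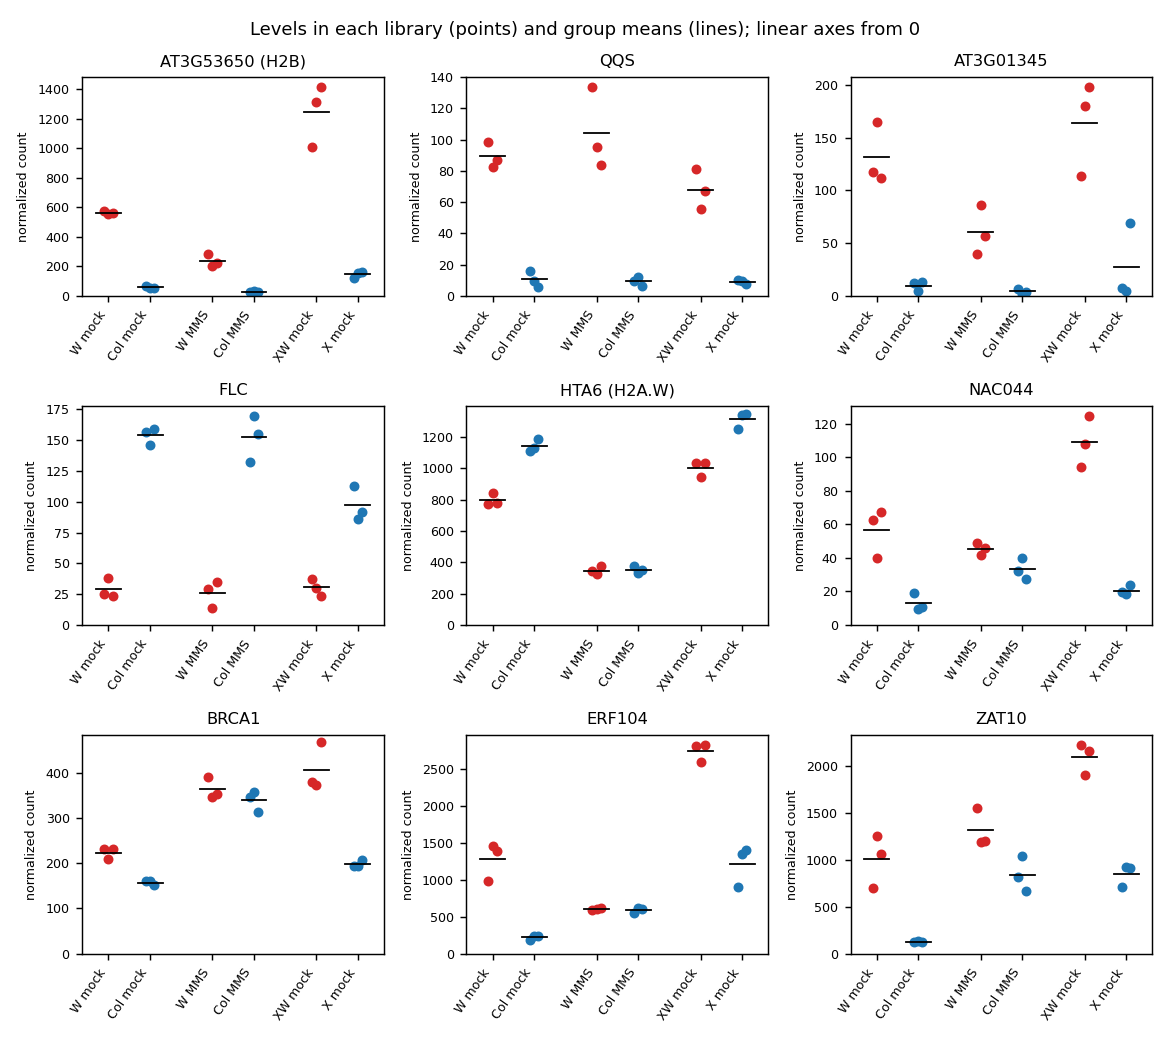
Normalized counts (y axes, linear, from 0) in each library (points) and group means (lines) for 9 genes in W mock and Col mock, W MMS and Col MMS, and XW mock and X mock, with the W-carrying group in red and its partner in blue. FLC stays low and QQS high in each red group, while ERF104 is high in W mock and level with Col under MMS.

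For touch factors and several damage genes the W difference was smaller with MMS than without. In W MMS over Col MMS the log2 fold change was 0.05 for ERF104, 0.56 for ORA47 and 0.65 for ZAT10, and the change of the W difference between MMS and mock was called for each. For ERF104 it was a log2 difference -2.43 with SE 0.23, adjusted p = 1.0e-07. For ORA47 it was a log2 difference -2.83 with SE 0.48, adjusted p = 5.0e-04, and for ZAT10 a log2 difference -2.25 with SE 0.27, adjusted p = 7.8e-06. ERF104 averaged 609 ± 16.6 in W MMS and 589.9 ± 36 in Col MMS, against 1279 ± 258 in W mock and 227 ± 31.6 in Col mock (normalized counts, SD, n = 3 each). Without MMS the same factors were also higher in XW mock than in X mock, by 1.2 for ERF104, 1.65 for ORA47 and 1.31 for ZAT10 on the log2 scale. NAC044 had a W difference of 0.46 under MMS, again with a called change (log2 difference -1.6 with SE 0.31, adjusted p = 0.0015), and averaged 45.4 ± 3.62 in W MMS and 33.1 ± 6.43 in Col MMS. SMR4 (log2 difference -1.66 with SE 0.43, adjusted p = 0.016) and XRI1 (log2 difference -0.55 with SE 0.14, adjusted p = 0.015) behaved alike, while for BRCA1 (log2 difference -0.41 with SE 0.17, adjusted p = 0.16) and GMI1 (log2 difference -0.30 with SE 0.15, adjusted p = 0.25) the change did not pass the test. Over all genes, the change was called higher for 891 (4.40%) and lower for 530 (2.62%). Among the 21 touch and wound genes called in W mock the change was called for 14, and among the 16 damage genes for 3. These genes were chosen by their W mock difference, which enters the change with the opposite sign. The choice alone pulls the change below 0, so these counts cannot be weighed against the shares of all genes.

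**Figure D4:**
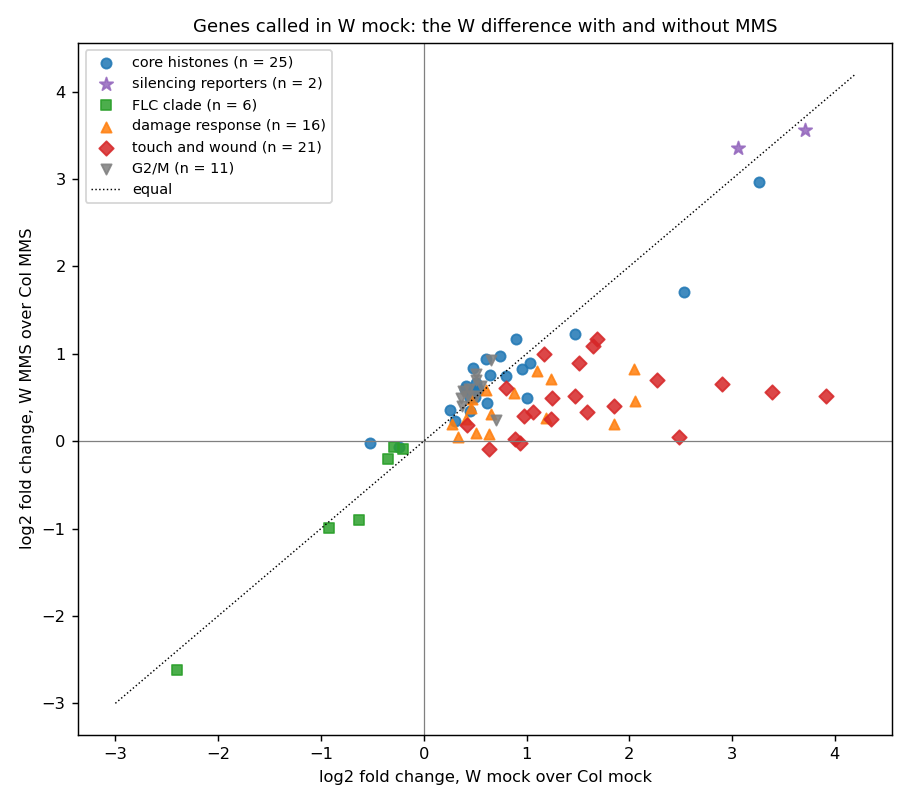
Log2 fold change of W MMS over Col MMS (y axis) against that of W mock over Col mock (x axis) for genes called in W mock, by list, with a dotted line where both are equal. The genes were chosen by the test on the x axis. FLC, QQS and AT3G01345 lie near the line, while ERF104 and ORA47 lie far below it.

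More than one direction was seen when the same genes were followed through MMS treatment of X seedlings. In X MMS against X mock 7343 genes (36.3%) were higher and 7470 (36.9%) lower. Of the 1226 genes higher in W mock, 323 (26.3%) were higher with MMS in X and 633 (51.6%) lower, and of the 1435 genes lower in W mock, 856 (59.7%) were higher with MMS in X and 343 (23.9%) lower. The damage list did not follow this as a whole: with MMS in X, BRCA1 changed by 0.92 and GMI1 by 0.95, while RNR1 changed by -0.66 on the log2 scale. All 9 H2B genes had values below 0 with MMS in X, between -1.15 and -0.36.

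The genes called were spread along the chromosomes. By distance from the middle of the centromere region, the share called higher was 8.25% within 1 Mb (97 genes), 4.86% from 1 to 2 Mb, 6.48% from 2 to 3 Mb, 5.62% from 3 to 5 Mb, 6.04% from 5 to 8 Mb and 6.17% beyond. The share called lower was 10.3% within 1 Mb, which is 10 genes, and between 6.13% and 7.22% in the other ranges. The tables hold few genes near the centromeres, and the median log2 fold change was between -0.01 and 0.00 in every range. Running medians over 15 neighbouring genes stayed between -0.26 and 0.40 on all 5 chromosomes, so no long stretch of a chromosome was raised or lowered. The highest value, 0.40, lay on chromosome 3 from 16883316 to 16933909, which holds the H2B genes HTB9 and HTB11 and the H4 gene AT3G45930. The next, 0.39, lay on chromosome 1 from 27414295 to 27466348, a cluster of genes with Toll-interleukin receptor domains in which 7 of 15 genes were called higher.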

How the data were processed

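Total RNA of seedlings was sequenced as paired reads of 150 nt. Per the submitters' processing notes, STAR, DESeq2 1.30.1 and the TAIR10 genome were used. How reads were counted, by strand or not, is not given in the sources used here. Of the authors' values the main ones were deposited as normalized signal (counts per gene divided by a size factor, as its values show: all were whole multiples of 1 read of their library within a tolerance of 0.01) and, besides, as FPKM, both for 20404 genes. All 20404 loci matched the RefSeq annotation of TAIR10.1, which gave symbols and positions. No gene stands at 0 in any library, so genes without reads in some library are not analysed here.

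Genes with at least 10 normalized counts in at least 3 libraries were tested (20256 genes, 148 removed). limma 3.58.1 in R 4.3.3 (trend) fitted log2(value + 1) over all 30 libraries with the 10 groups as coefficients (20 residual degrees of freedom), with Benjamini-Hochberg adjustment within each comparison. Alternatives used edgeR 4.0.16 and DESeq2 1.42.0 on recovered reads of 28 libraries, FPKM, other filters and pseudocounts, fewer libraries, and a replicate block. On simulated data for W mock against Col mock (20256 genes), 51 of 67 genes changed by 1.5-fold, 63 of 67 by 2-fold and 66 of 66 by 4-fold were called, with 11 false calls among 191. Replicates of a group differed by more than counting noise. The chi-square per degree of freedom was between 2.09 and 3.26 for pairs of Col mock libraries. For pairs of W mock libraries it was between 3.66 and 7.62, the highest being replicates 1 and 2. The study groups, gene lists and tests were chosen with earlier results of these data known. The rule for names allowed members of the histone, chromatin, damage and FLC lists, up to 5 called genes of each other list by adjusted p, and the 12 largest rises and falls with a mean of at least 1 CPM over the 6 libraries and no overlap of groups. Not every gene so allowed is named, and FRO2 and IRT1 were named after their values were seen.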

Additional observations from a re-analysis of the deposited data

Results flagged for a closer look

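For 44 genes called in W mock the W difference itself changed with MMS. They come from the genes that the rule for names allows and from the sets of phosphate, dark and Toll-interleukin receptor genes put together after their values were seen. In each the log2 difference of W MMS over Col MMS minus that of W mock over Col mock had an adjusted p under 0.05 in limma. The value in brackets after each gene is that change. It was below 0 for the touch and wound factors ERF105 (-3.40), ORA47 (-2.83), ERF104 (-2.43), ZAT10 (-2.25), SZF1 (-1.46), MKK9 (-1.26), ERF5 (-0.96), CZF1 (-0.72) and TCH2 (-0.69), which are 9 of the 14 touch and wound genes with such a change, and for 3 of the 12 largest rises, AT5G45630 (-2.89), CAF1a (-2.51) and DIC2 (-1.48). Among damage genes it was below 0 for SMR4 (-1.66), NAC044 (-1.60) and XRI1 (-0.55).

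Histone genes differed among themselves: HTA3 (-0.51), HTB2 (0.33) and HTA6 (0.49). For HTA6 the W difference was -0.02 under MMS and -0.52 in mock. Of the 12 largest falls, AT1G19540 (1.3), AT3G01175 (1.37), AT5G02760 (1.67), ASN1 (1.84) and FLP1 (3.23) had changes above 0. FLP1 was lower in W mock (-2.11) and higher in W MMS (1.12), each called in its own comparison. Of other lists, the genes were WRKY70 (-1.0), SVP (-0.45), LHCB1.3 (0.54), RBCS2B (0.62) and BOA (0.79). Over all genes 4.40% were called above 0 and 2.62% below 0 by this test. The genes listed here were chosen by their W mock difference, which is part of the change, so their number cannot be weighed against these shares. The same holds for the phosphate, dark and Toll-interleukin receptor genes below.

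Among the phosphate genes the change was below 0 for PEPC1 (-2.77), SPX1 (-2.13), SRG3 (-2.08), PAP17 (-1.11), SQD1 (-0.72), SPX2 (-0.66) and SQD2 (-0.54). The Toll-interleukin receptor genes of chromosome 1 were below 0 as well, with AT1G72910 (-2.47), AT1G72920 (-1.98), AT1G72940 (-1.47), AT1G72930 (-1.05), AT1G72900 (-1.01) and AT1G72890 (-0.69). The dark-induced SEN1 (1.1), BCE2 (0.90) and DIN4 (0.71) were above 0, as was ASN1.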

How the results depend on the processing

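Counts of genes called in W mock against Col mock (1226 higher, 1435 lower) stayed within 1.5 times under 12 alternatives that kept all 6 libraries. DESeq2 called 1244 higher and 1302 lower, edgeR with TMM 1255 and 1448, FPKM 1529 and 1141, and the 6 libraries alone 1570 and 1614. Leaving out 1 of the 6 libraries, or XW mock replicate 1 (an alternative chosen after seeing the data, as was edgeR with DESeq2 size factors), gave between 778 and 1520 higher and between 962 and 1837 lower, and between 3 and 13 higher G2/M genes. The FLC clade count of 6 lower was 3 with DESeq2, 3 with FPKM, 3 with the 6 libraries alone, 3 with the 15 mock libraries and between 3 and 6 with a library left out. The count of lower genes was 365 with the W MMS and Col MMS libraries alone, and 716 for XW mock over X mock without XW mock replicate 1. The cause was not tested beyond the fewer samples in such fits. All 9 H2B genes were called higher under all 18 alternatives, and core histone, damage, and touch and wound counts stayed within 1.5 times under them. Of 157 called genes described, 105 kept the call without any 1 of the 6 libraries and 52 lost it without at least 1, and none turned its direction. With a replicate block, 1210 genes were higher and 1404 lower and no count above moved by over 1.5 times. Replicate numbers did not pair the samples (correlations of deviations between -0.07 and -0.04, and no sample correlated best with its own number). Depth limits the low genes, such as the SMR genes.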

Other observations

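Genes of phosphate starvation were higher in W mock, a set put together after its values were seen and given without a test. Of the 13 such genes measured, 10 were called higher and none lower (median log2 fold change 0.79). SPX1, a phosphate sensor that restrains the starvation response, had 1121, 1358 and 1263 in W mock against 297, 244 and 266 in Col mock (log2 fold change 2.21 with SE 0.14, adjusted p = 3.5e-12). SRG3, a glycerophosphodiester phosphodiesterase that recovers phosphate from lipids, had 1417, 2152 and 1656 in W mock against 303, 291 and 387 in Col mock (log2 fold change 2.4 with SE 0.13, adjusted p = 2.3e-13). PAP17, an acid phosphatase, had 1215, 1545 and 1355 in W mock against 407, 364 and 439.6 in Col mock (log2 fold change 1.76 with SE 0.14, adjusted p = 2.3e-10), and SQD1, which makes the sulfolipid that stands in for phospholipids, had 3560.2, 3286 and 3389 in W mock against 1994, 1882 and 1998 in Col mock (log2 fold change 0.80 with SE 0.05, adjusted p = 1.3e-11). In all 10 genes the groups did not overlap, as for 1175 of all 1226 genes called higher. Under MMS 2 of the 10 were called higher and in XW mock over X mock 2 were, and for 7 the change of the W difference between MMS and mock was called. The calls of PEPC1, PS2 and MGD2 were lost in some fits without 1 library. PHO1, the phosphate exporter on the root list, was lower.

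Genes induced by darkness and sugar starvation were lower, again a set written after values were seen. Of 7 genes 5 were called lower: ASN1 and DIN2, given above, BCE2 (log2 fold change -0.60 with SE 0.10, adjusted p = 8.1e-05), DIN4 (log2 fold change -0.55 with SE 0.09, adjusted p = 1.7e-04) and SEN1 (log2 fold change -0.65 with SE 0.21, adjusted p = 0.038). SEN1 had 501, 1113 and 692 in W mock against 1348, 1004 and 1097 in Col mock, which overlap, and its call was lost without replicates 1 or 3 of either group. W mock replicate 1 was the lowest library for all 5. None of the 5 was called lower under MMS or in XW mock over X mock.

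On chromosome 1, 6 neighbouring genes with Toll-interleukin receptor domains, AT1G72890 to AT1G72940, were all called higher, AT1G72910 with 265, 378 and 390.5 in W mock against 57.9, 58.3 and 63.3 in Col mock (log2 fold change 2.49 with SE 0.26, adjusted p = 6.4e-08) and AT1G72920 with 181, 251 and 248 in W mock against 36.6, 36.7 and 45.7 in Col mock (log2 fold change 2.48 with SE 0.23, adjusted p = 8.8e-09). In XW mock over X mock 5 of the 6 were called higher, under MMS none was, and the change of the W difference between MMS and mock was called for all 6. W mock replicate 1 was again the lowest W mock library for all 6. Such genes are similar in sequence and shared reads could tie their values together.

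Among genes annotated as lncRNA, 3 of 257 (1.17%) were called higher and 31 (12.1%) lower, with a median log2 fold change of -0.14, against 6.15% higher and 7.00% lower of 19816 protein-coding genes. Many of these transcripts have few reads and lie across other genes, and the part of either was not tested.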
